A study of Homo sapiens with 8 samples.

Results

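The nuclear genes for the subunits of the mitochondrial respiratory chain and the ATP synthase were followed in HepG2 cells treated with compounds 4–6. Members were chosen by symbol among the protein-coding genes, which gave 89 of the 60230 genes in the table. They comprised 38 genes of complex I, 4 of complex II, 9 of complex III, 19 of complex IV and 19 of the ATP synthase. NDUFA4 and NDUFA4L2 carry complex I names but were counted with complex IV, where their proteins are found. COX7A2L was taken in by its symbol, although its product joins complexes III and IV into supercomplexes rather than serving as an ordinary subunit. The readthrough genes NDUFC2-KCTD14 and ATP5MF-PTCD1 were also taken in by symbol and share exons with NDUFC2 and ATP5MF.

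HepG2 is a human hepatoma line, and the cells used here carried a CYP2C19 expression construct, held by blasticidin selection, in every group, the DMSO controls included. CYP2C19 is a cytochrome P450 enzyme that oxidizes drugs and other foreign compounds. The 4 groups were DMSO, compound 4, compound 5 and compound 6, with 2 libraries each, labelled as days 1 and 2 and called replicates 1 and 2 below. The question behind the series was whether additives of plastic harm such liver cells. All 3 compounds are bisphenol antioxidants: compound 4 has a methylene bridge with a tert-butyl and a methyl group on each ring, compound 5 has an ethane bridge with a pair of tert-butyl groups on each ring, and compound 6 has a methylene bridge with a cyclohexyl and a methyl group on each ring. Each was given at its own IC50, the usual midpoint measure of growth inhibition, so concentrations differed between compounds. The study described the IC50 values of these 3 compounds as fairly similar. The labels do not say whether the libraries of a group came from separate cultures, and p-values therefore measure only the spread between these libraries. One engineered line was used throughout.

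Complex I takes electrons from NADH and complex II from succinate, and both pass them to coenzyme Q. Complex III hands them on to cytochrome c, and complex IV reduces oxygen with them. Complexes I, III and IV pump protons, and the ATP synthase uses the return of these protons to make ATP. A few subunits are encoded by the mitochondrial genome, and all others come from the nuclear genes described here, whose proteins are imported. Nuclear respiratory factors, ETS factors and estrogen-related receptors, with the coactivator PGC-1α, are known regulators of these nuclear genes.

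The libraries held between 9791659 and 17814595 estimated counts, of which the 89 genes took 0.792 to 0.938%. In total 82 members passed the filter on low counts, and 79 of these had at least 100 counts in every library. The 9 hepatocyte markers were all expressed. Of 12 markers of other cell types only 4 passed the filter, and PTPRC, CD3E, COL1A2 and DCN were at 0 in all libraries. The other cell type markers summed to 146 to 184 CPM in DMSO and 137 to 185 over the treated libraries. PDGFRB, a marker of stromal cells, rose with compound 4 (9.12 and 5.02 CPM in DMSO, 23.2 and 25.3 with compound 4, 11.4 and 7.63 with compound 5, 14.6 and 14.3 with compound 6, adjusted p = 0.0063 with compound 4 by edgeR), and CD14, SOX9 and VWF were not called. The summed hepatocyte markers lay between 50664 and 54654 CPM (counts scaled to library size with TMM factors) in DMSO, 34999 and 42425 with compound 4, 43463 and 44734 with compound 5, and 37678 and 43803 with compound 6. The part of either marker list in the results was not tested. In bulk RNA, fewer cells of a type and less RNA per cell cannot be told apart.

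COX7A2L, the supercomplex factor, was the only member past the threshold in the edgeR comparisons, so the letters before its starts are shown. RefSeq gives a pair of start sites on the minus strand of chromosome 2 (GRCh38.p14), and the 250 bases before each are printed 5′ to 3′. Capitals would mark a match to the motifs described below, and neither stretch holds one.
COX7A2L, chr2:42361218-42361467: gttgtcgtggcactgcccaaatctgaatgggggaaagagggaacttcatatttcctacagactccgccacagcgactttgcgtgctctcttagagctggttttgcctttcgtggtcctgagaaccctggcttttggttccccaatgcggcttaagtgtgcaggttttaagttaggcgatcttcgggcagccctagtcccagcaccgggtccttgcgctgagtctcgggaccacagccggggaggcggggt
COX7A2L, chr2:42368958-42369207: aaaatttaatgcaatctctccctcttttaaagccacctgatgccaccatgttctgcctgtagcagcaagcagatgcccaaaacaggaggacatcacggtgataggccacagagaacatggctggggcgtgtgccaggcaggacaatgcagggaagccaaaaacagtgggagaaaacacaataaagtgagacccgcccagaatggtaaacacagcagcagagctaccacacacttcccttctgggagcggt

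Because ESRRA, the gene of estrogen-related receptor α, was higher after compounds 4 and 5 (below), member promoters with that receptor's motif are shown as well. The motif AAGGTCA, in capitals on either strand, lay in the 250 bases before the start of 7 of the 66 tested members with a RefSeq promoter, none of them called in any comparison. All windows are on GRCh38.p14 and read along the gene's strand.
SDHB, chr1:17054239-17054267, minus strand: ccctttctgagAAGGTCAcgggggaagcc
NDUFB4, chr3:120596286-120596314, plus strand: tcctgaagctgAAGGTCAgcatagacaaa
COX7A2, chr6:75243954-75243982, minus strand: tgaacatcgaaAAGGTCAggaacgagatc
NDUFA5, chr7:123601767-123601795, minus strand: aaattaagaccTGACCTTgtacaactgaa
ATP5MG, chr11:118401560-118401588, plus strand: aagaggcggccTGACCTTggaagtgggac
ATP5F1A, chr18:46098300-46098328, minus strand: gccggctgtctTGACCTTctttgcggctc
NDUFS7, chr19:1383725-1383753, plus strand: gcgcactccgaTGACCTTtccgcctcggg

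These 7 genes were 10.6% of the members searched, beside 3.83% of the 15288 protein-coding genes with a promoter in the table. The palindromic motif of nuclear respiratory factor NRF1 was found in 21.2% of the members and 8.81% of all genes. The ETS motif CCGGAAG was found in 27.3% and 14.2%, and the YY1 motif AAGATGGC in 1.52% and 1.77%. Both strands were searched and matches of different motifs may overlap. A second search, added after these shares had been seen, took in the 50 bases after the start as well. It gave 16.7% against 4.26% for the receptor motif, 24.2% against 9.74% for NRF1, 31.8% against 16.7% for ETS and 18.2% against 4.75% for YY1, so the YY1 share depended on the window. A match is a description of letters and not a bound site.

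Most members moved little. In edgeR's quasi-likelihood fit with Benjamini-Hochberg adjustment over 13400 genes, 1 of 82 tested members passed an adjusted p of 0.05 after compound 4, where 9.51% of all genes did. After compound 5 it was also 1 of 82, beside 8.3% of all genes. At an unadjusted p under 0.05 there were 11 members with compound 4 and 12 with compound 5, beside 27.5 and 28.4% of all genes. After compound 6 it was 0 of 82, beside 0.575% of all genes, and 15 members had an unadjusted p under 0.05 there, beside 18.6% of all genes. DESeq2 called 2 members in that comparison, ATP5MF and NDUFC2-KCTD14, beside 4.33% of the genes it tested. The log2-fold change stayed within 0.5 of 0 for 81, 78 and 80 of 82 members with compounds 4, 5 and 6, beside 76.7, 75.4 and 82.9% of all tested genes. These comparisons share the DMSO libraries.

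**Figure D1:**
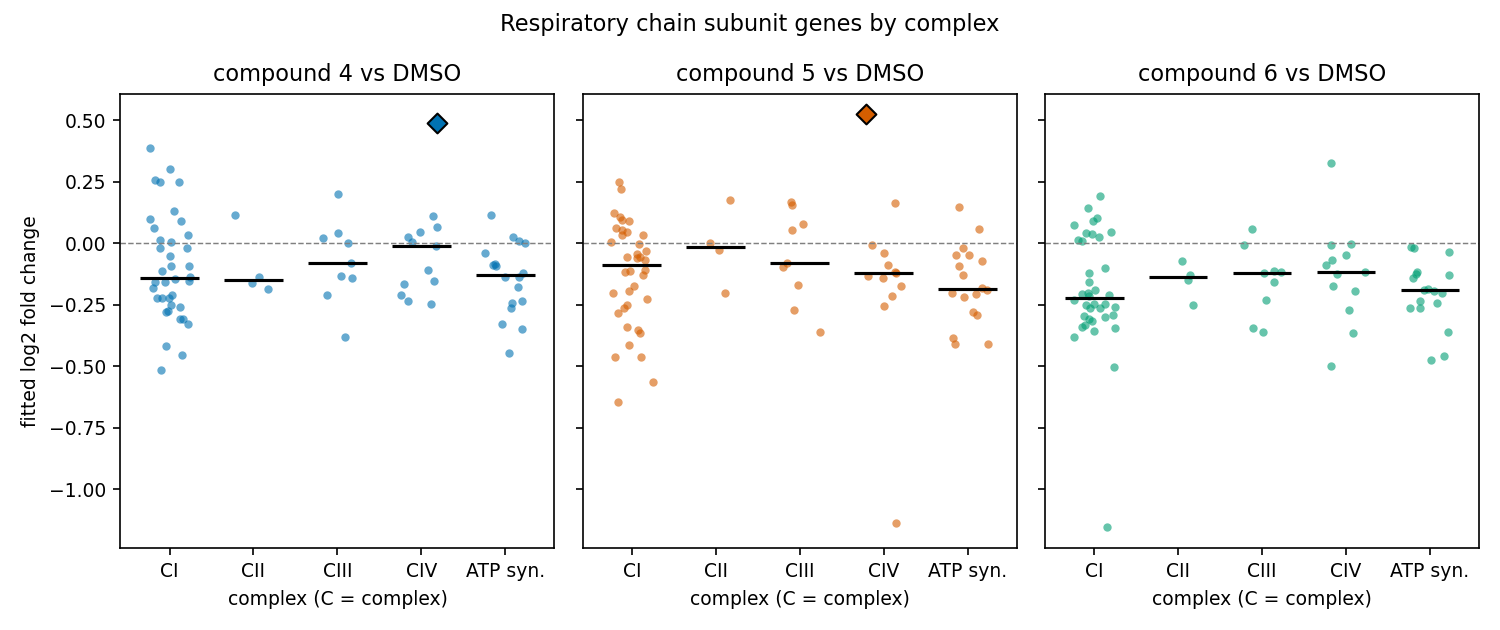
Fitted log2-fold change of each tested subunit gene (points) by complex for each compound against DMSO, with the median of the complex as a black line and genes past an adjusted p of 0.05 as outlined diamonds. Only COX7A2L is past the threshold, at 0.49 with compound 4 and 0.52 with compound 5, and most medians lie slightly below 0.

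The small changes leaned downward. The median log2-fold change over the tested members was -0.13 with compound 4, -0.11 with compound 5 and -0.19 with compound 6, where the median over all tested genes was 0.01, 0.00 and 0.02. Estimates were below 0 for 55, 61 and 69 of 82 members, beside 48.6, 49.6 and 47.3% of all genes. These list values carry no test.

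Members whose libraries did not overlap the controls lay mostly below them, most often with compound 6. Both compound 6 libraries lay below both DMSO libraries for 55 of 82 members, beside 26% of all genes, and above them for 3, beside 29.3%. With compound 5, 34 members lay below, beside 28.5% of all genes, and 10 above, beside 31%. Under upper-quartile scaling the compound 5 counts were 51 below and 5 above, beside 37.9 and 22.1% of all genes, and 4 members lay above with compound 4, beside 27.3%. With compound 4, 23 members lay below, beside 28%, and 9 above, beside 30.4%, so the share below was at the background and the share above was under it. In all 3 treated groups at once, 12 members (14.6%) lay below both DMSO libraries, beside 11.7% of all genes. Above them in all 3 lay 2 members (2.44%), beside 14.4% of all genes.

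**Figure D2:**
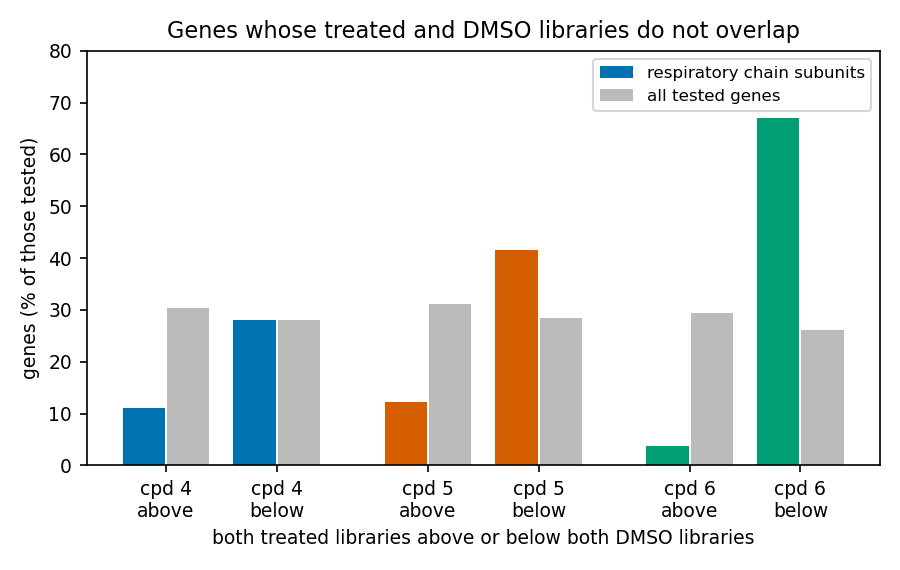
Share of the 82 tested subunit genes (coloured bars) and of the 13400 tested genes (grey bars), in percent, whose 2 treated libraries both lay above or both lay below the 2 DMSO libraries. The tallest bar is compound 6 below, at 67.1% of subunit genes against 26% of all genes.

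The replicates of compounds 4 and 5 did not carry the lean equally. The median difference from the DMSO mean over the members, in log2(CPM + 0.5), was -0.00 in replicate 1 and -0.20 in replicate 2 of compound 4. It was -0.19 in replicate 1 and -0.05 in replicate 2 of compound 5. Both compound 6 libraries were lower, at -0.15 and -0.19. The DMSO libraries were at -0.01 and 0.01, so with compounds 4 and 5 the lean rests mainly on 1 library each. The labels mark DMSO replicate 1 and compound 4 replicate 1 as merged, and no other library. The merged labels list a pair of S numbers each. What these numbers stand for is not stated, and a bearing on these values was not tested.

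**Figure D3:**
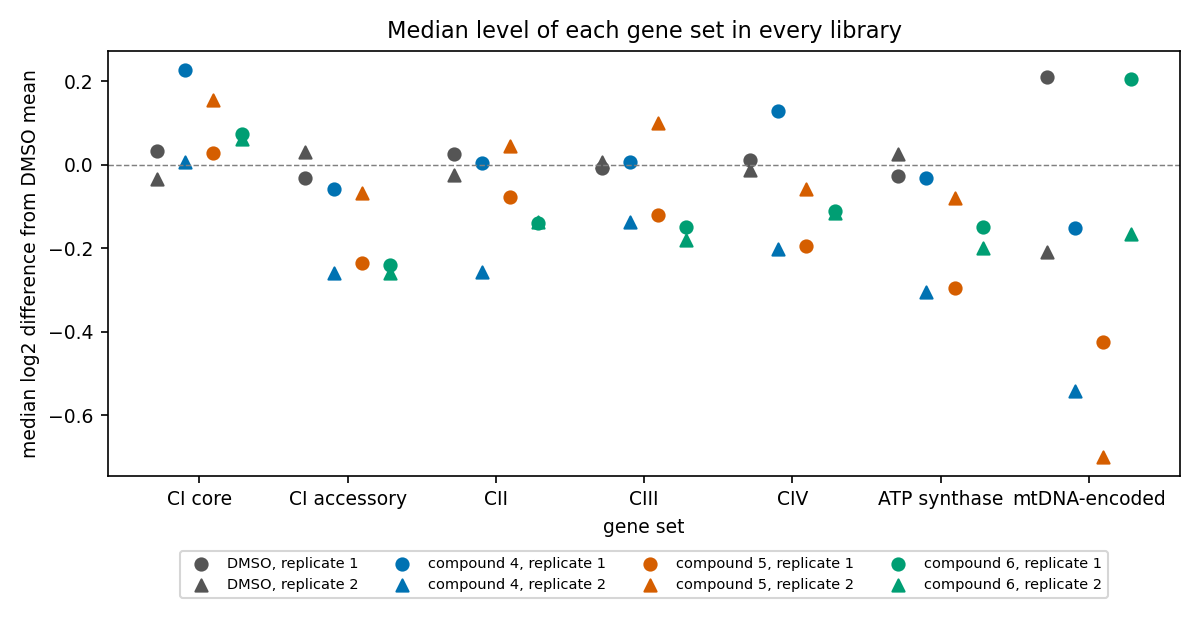
Median log2 difference from the DMSO mean, in log2(CPM + 0.5), for each gene set (x axis, C for complex) in every library, coloured by group with circles for replicate 1 and triangles for replicate 2. Medians of the complex I core genes lie above 0 in all 6 treated libraries, 2 of them within the spread of the DMSO libraries, and medians of the accessory genes lie below 0 in all 6.

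The medians of complex I differed between its parts. The 7 nuclear core subunits, which carry the flavin and iron-sulfur clusters, had medians of 0.13, 0.06 and 0.09 with compounds 4, 5 and 6. The 31 accessory genes, whose proteins surround the core, had medians of -0.16, -0.13 and -0.25. In single libraries the core median was 0.0060 in compound 4 replicate 2 and 0.029 in compound 5 replicate 1, within the 0.033 by which the DMSO libraries lay from their mean. Above both controls lay 3, 1 and 2 of the 7 core genes, beside 30.4, 31 and 29.3% of all genes. Below both lay 0, 1 and 1, beside 28, 28.5 and 26%. These were NDUFS8 with compound 5 and NDUFS3 with compound 6 (-0.25, adjusted p = 0.32 by edgeR). None of the 38 genes passed the threshold, and the difference between core and accessory genes was not tested. The medians of these parts were taken under TMM scaling only. With compound 5, upper-quartile factors moved the median over all genes from 0.0037 to -0.092, so the sign of the core median there may depend on scaling.

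NDUFS1, the largest core subunit, was at 190 and 182 CPM in the DMSO libraries, 218 and 224 with compound 4, 226 and 207 with compound 5 and 210 and 214 with compound 6. All treated libraries were above the controls, as for 14.4% of all genes. Its log2-fold changes of 0.25, 0.22 and 0.19 had adjusted p-values of 0.13, 0.17 and 0.32 by edgeR's quasi-likelihood test. The gene overlaps EEF1B2 on the other strand.

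NDUFV2, the core subunit with an iron-sulfur cluster beside the flavin site, was the highest complex I gene with compound 4. It was at 88.3 and 77.0 CPM in DMSO and 119 and 96.8 with compound 4, and at 85.6 and 79.3 with compound 5 and 86.8 and 90.7 with compound 6. Only the compound 4 libraries lay clear of both controls and of the other groups. The log2-fold change with compound 4 was 0.39 (SE 0.13, adjusted p = 0.089 by edgeR).

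NDUFB10, an accessory subunit of the membrane arm, was at 95.9 and 92.7 CPM in DMSO, 76.9 and 55.4 with compound 4, 58.4 and 78.0 with compound 5 and 70.1 and 62.9 with compound 6. All treated libraries were below the controls, as for 11.7% of all genes, with a wide gap between the replicates of compounds 4 and 5. The log2-fold changes were -0.51, -0.46 and -0.50 (SE 0.18 each), with adjusted p-values of 0.098, 0.12 and 0.18 in the edgeR fit. The gene was called under some alternatives. These were DESeq2, no filter and leaving out compound 4 replicate 1 with compound 4, no filter and leaving out compound 5 replicate 2 with compound 5, and no filter and the 4 libraries compared with compound 6.

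The lowest complex I value with compound 6 belonged to NDUFC2-KCTD14. It was at 8.30 and 11.8 CPM in DMSO, 8.44 and 8.52 with compound 4, 7.41 and 6.32 with compound 5, and 4.81 and 4.26 with compound 6. The compound 6 libraries were the lowest of all, with a log2-fold change of -1.15 (95% interval -1.67 to -0.64, adjusted p = 0.054 by edgeR). NDUFC2 itself, at 177 and 193 CPM in DMSO and 190 and 186 with compound 6, had a log2-fold change of 0.02. It was the highest complex I gene with compound 5 (0.25, adjusted p = 0.21 by edgeR). How reads were divided between the readthrough gene and NDUFC2 is uncertain.

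NDUFA7, an accessory subunit, was the lowest complex I gene with compound 5. Its levels were 17.1 and 16.2 CPM in DMSO, 15.3 and 20.2 with compound 4, 9.63 and 11.6 with compound 5 and 8.54 and 21.2 with compound 6. Compound 5 libraries lay below the controls, while those of compound 6 lay on either side. The log2-fold change with compound 5 was -0.64 (SE 0.34, adjusted p = 0.24 by edgeR). The gene overlaps RPS28, a ribosomal protein gene, on the other strand and another counted gene on the same strand.

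Complex II, the succinate dehydrogenase of the citric acid cycle, had medians of -0.15, -0.01 and -0.14. None of its 4 genes passed the threshold. SDHB, the iron-sulfur subunit, was highest in all comparisons, with log2-fold changes of 0.11, 0.17 and -0.07. The lowest were SDHD, a membrane anchor, with compound 4 (-0.19) and SDHC, the other anchor, with compounds 5 (-0.20) and 6 (-0.25). The intervals of these values all include 0.

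Complex III had medians of -0.08, -0.08 and -0.12 over 9 genes, with no call. UQCRQ, a small subunit, was lowest with each compound. It was at 62 and 70.3 CPM in DMSO, 55.7 and 46.2 with compound 4, 44.3 and 58.4 with compound 5 and 51.0 and 52.2 with compound 6. All treated libraries were below both controls, as for 11.7% of all genes. The log2-fold changes of -0.38, -0.36 and -0.36 had adjusted p-values of 0.15, 0.16 and 0.26 by edgeR's quasi-likelihood test. The highest were UQCRC1, a core subunit, with compounds 4 (0.20) and 5 (0.17), and UQCRB with compound 6 (0.06), none past the threshold.

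Complex IV had medians of -0.01, -0.12 and -0.12 over its 13 tested genes, and held the called gene. The median with compound 4 ran from -0.23 to 0.13 when libraries were left out. COX7A2L (chromosome 2, 42333546 to 42425088, minus strand, GRCh38) was at 108 and 103 CPM in DMSO, 149 and 147 with compound 4, 164 and 139 with compound 5 and 133 and 131 with compound 6. Every treated library was above both controls, as for 14.4% of all genes. COX7A2L rose with compound 4 by a log2-fold change of 0.49 (SE 0.11, 95% interval 0.24 to 0.74, adjusted p = 0.026) and with compound 5 by 0.52 (SE 0.11, 0.28 to 0.77, adjusted p = 0.023) in edgeR's quasi-likelihood test. With compound 6 its value was 0.33 (0.08 to 0.57, adjusted p = 0.16 by edgeR). No other counted gene overlaps it. The call with compound 4 was lost when either compound 4 library or either DMSO library was left out, while its log2-fold change stayed between 0.45 and 0.52. In those fits, with a single library in 1 group, 43 to 932 of all genes were called in place of 1275. The call with compound 5 was lost without compound 5 replicate 1 or either DMSO library, and in a fit of only the 4 libraries compared, with log2-fold changes of 0.38 to 0.64 when libraries were left out.

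**Figure D4:**
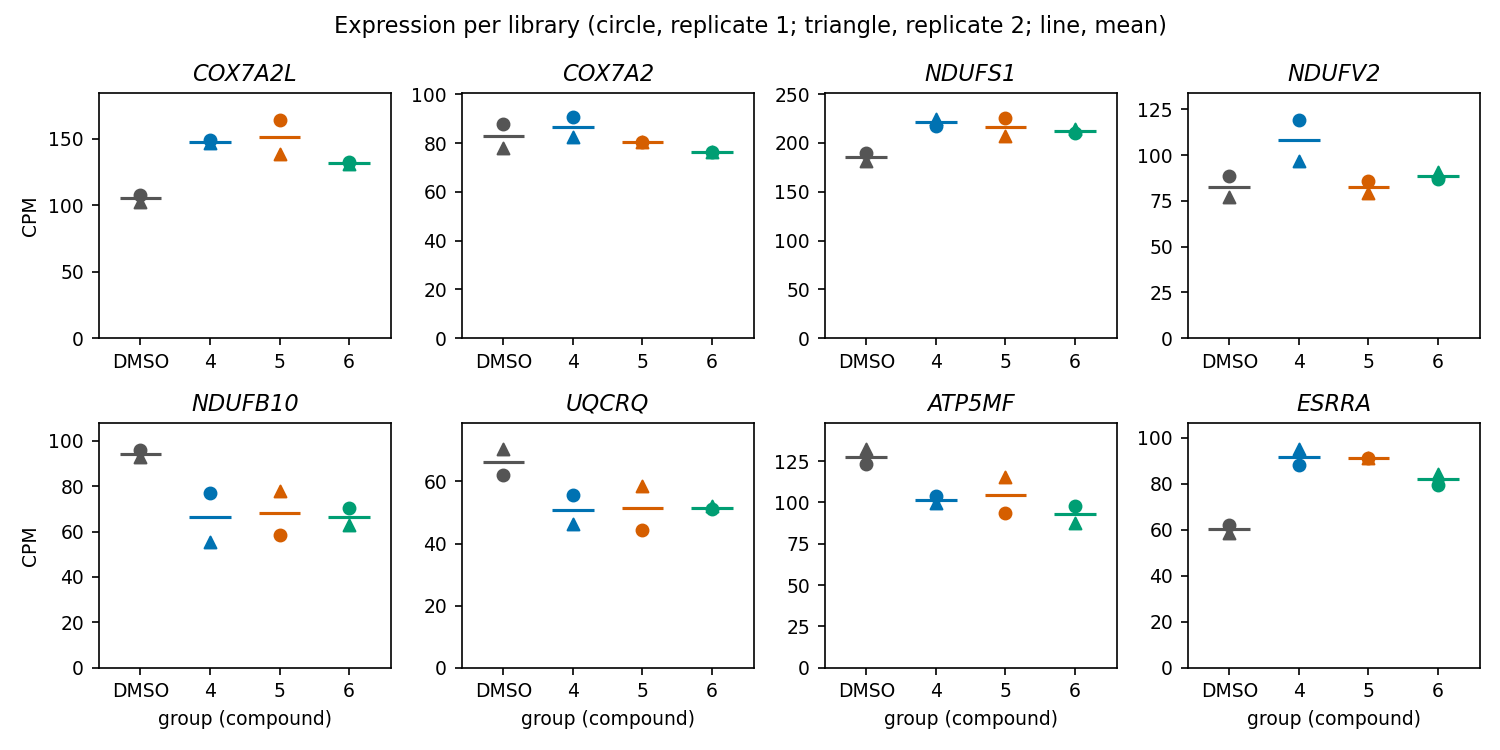
TMM-scaled CPM (y axis from 0) of COX7A2L, its paralog COX7A2, 5 further subunit genes and ESRRA in each library, by group, with circles for replicate 1, triangles for replicate 2 and lines for the mean. COX7A2L and ESRRA lie above both DMSO libraries in all 6 treated libraries, and NDUFB10, UQCRQ and ATP5MF below them. Of all tested genes, 14.4% lie above and 11.7% below in this way.

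COX7A2, the ordinary subunit of the same family, was at 87.7 and 78.0 CPM in DMSO and between 76.4 and 90.5 in the treated libraries, and its groups overlapped with compounds 4 and 5. Its log2-fold changes were 0.06, -0.04 and -0.12. On a scale per kilobase of coding sequence, COX7A2L had a median of 396 and COX7A2 of 234 CPM per kilobase over the 8 libraries. The ranges were 300 to 480 and 221 to 262. The median of COX7A2L includes the treated libraries, in which it was higher, and the scale leaves out untranslated sequence.

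Where complex IV has alternative isoforms, the widely expressed form was present and the other nearly absent. COX4I1 had a median of 609 CPM per kilobase, COX6A1 580, COX6B1 484, COX7B 240 and COX8A 461. COX6A2, COX7A1, COX7B2 and COX8C, known mainly from muscle or testis, were at 0 in every library, and COX4I2 and COX6B2 reached at most 1 and 2 counts. With ATP5MGL, which reached 2 counts, these are the 7 untested members. NDUFA4 had a median of 515 CPM per kilobase and its paralog NDUFA4L2, a gene induced by hypoxia, 7.76.

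NDUFA4L2 was at 3.69 and 2.09 CPM in DMSO, 3.38 and 1.52 with compound 4, 1.48 and 1.14 with compound 5 and 2.06 and 1.99 with compound 6. It was the lowest complex IV gene in each comparison (-0.25, -1.14 and -0.50), with wide intervals. The value with compound 5 had an interval of -2.17 to -0.11 and an adjusted p of 0.14 by edgeR, on 18 to 36 counts per library over the series.

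The ATP synthase had medians of -0.13, -0.19 and -0.19 over 18 tested genes, and with compound 6 all 18 estimates were below 0. None passed the threshold. ATP5MF, a small subunit of the membrane part, was at 123 and 132 CPM in DMSO, 104 and 99.5 with compound 4, 93.4 and 115 with compound 5 and 97.9 and 87.7 with compound 6. All treated libraries were below the controls, as for 11.7% of all genes. The log2-fold change with compound 6 was -0.46 (-0.74 to -0.18, adjusted p = 0.11 by edgeR).

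ATP5F1D, the δ subunit of the catalytic head, had the lowest value with compound 6, -0.47 (adjusted p = 0.30 by edgeR), and 87.8 and 106 CPM in DMSO against 79.4 and 60.3 there. ATP5F1A, the α subunit of that head, was highest with compounds 5 (0.15) and 6 (-0.02). ATP5MF-PTCD1 was lowest with compounds 4 (-0.45) and 5 (-0.41). ATP5MC2 was highest with compound 4 (0.11). None of these values passed the threshold.

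The c subunit of the proton-driven ring is encoded by 3 genes with one mature protein. The first 90 coding bases of the shared stretch (GRCh38, GENCODE 29) show how their reads can be told apart, with the 23 positions that differ among the genes in capitals.
ATP5MC1, chr17:48895216-48895305, plus strand: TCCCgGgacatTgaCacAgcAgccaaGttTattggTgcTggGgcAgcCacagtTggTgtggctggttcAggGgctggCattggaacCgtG
ATP5MC2, chr12:53669177-53669266, minus strand: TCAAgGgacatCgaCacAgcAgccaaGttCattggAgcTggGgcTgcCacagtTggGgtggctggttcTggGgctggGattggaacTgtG
ATP5MC3, chr2:175179086-175179175, minus strand: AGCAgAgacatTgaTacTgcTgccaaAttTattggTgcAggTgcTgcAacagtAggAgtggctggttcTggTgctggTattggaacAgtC

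Over the 231 bases that code for the shared 77 residues, ATP5MC1 and ATP5MC2 were 88.3% identical and each was 80.1% identical to ATP5MC3. ATP5MC3 had a median of 705 CPM per kilobase, ATP5MC1 213 and ATP5MC2 203. The log2-fold changes of ATP5MC1 were 0.00, -0.22 and -0.13 and those of ATP5MC3 -0.14, -0.18 and -0.20, without a call.

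The compounds were also compared with each other, each at its own IC50. None of 82 members passed the threshold between compounds 4 and 5, beside 0.313% of all genes, between compounds 4 and 6, beside 0%, or between compounds 6 and 5, beside 1.03%. At an unadjusted p under 0.05 there were 1, 1 and 7 members, beside 16.2, 7.05 and 18.5% of all genes. For COX7A2L the difference was -0.03 between compounds 4 and 5 (95% interval -0.28 to 0.21), 0.16 between 4 and 6 (-0.08 to 0.41) and -0.20 between 6 and 5 (-0.44 to 0.05). These intervals do not show that the compounds act alike.

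Genes around the respiratory chain moved in a few places. The 13 subunit genes of the mitochondrial genome had medians of -0.34, -0.58 and 0.03. Below both DMSO libraries lay 5, 12 and 0 of them, beside 28, 28.5 and 26% of all genes. Above both lay 0, beside 30.4, 31 and 29.3%. The library median of compound 4 replicate 1, -0.15, lay within the -0.21 to 0.21 of the DMSO libraries. MT-ND5, a proton-pumping subunit of complex I, fell with compound 5 by 0.78 on the log2 scale (adjusted p = 0.042 by edgeR). It was the only call among the 13, where 8.3% of all genes were called. These genes took 5.78 and 4.50% of counts in the DMSO libraries, 4.48 and 3.41% with compound 4, 3.6 and 3.09% with compound 5 and 5.80 and 4.77% with compound 6. The DMSO libraries differed by more than 1 percentage point.

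Among 17 regulators of respiratory genes, 16 were tested. ESRRA was at 62.1 and 58.8 CPM in DMSO, 88 and 95 with compound 4, 91.2 and 91.2 with compound 5 and 79.5 and 84.5 with compound 6. It rose by 0.60 with compound 4 (adjusted p = 0.011) and 0.59 with compound 5 (adjusted p = 0.012, edgeR), and its value with compound 6 was 0.44 (adjusted p = 0.079, edgeR).

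PPARGC1A, which encodes the coactivator PGC-1α, was at 31.9 and 26.6 CPM in DMSO and 65.3 and 43.5 with compound 5. It rose by 0.89 there (adjusted p = 0.022 by edgeR), with values of 0.64 and 0.42 for compounds 4 and 6. PPRC1, a related coactivator, rose by 0.43 with compound 5 (adjusted p = 0.042 by edgeR). Of the 16 regulators, 1 was called with compound 4, beside 9.51% of all genes, and 3 with compound 5, beside 8.3%. With compound 6, 0 were called, beside 0.575% of all genes.

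Of the assembly factors, which help build the complexes, few were called, and the shares below stand beside 9.51% of all genes with compound 4 and 8.3% with compound 5. With compound 4, 2 of 26 complex IV factors were called, COX11, a copper chaperone, at -0.45 and HIGD1A at 0.47. With compound 5, NDUFAF1, 1 of 18 complex I factors, fell by 0.67 on the log2 scale and LYRM7, 1 of 6 complex III factors, by 0.62. None was called among the 4 complex II factors or the 6 genes of ATP synthase assembly and inhibition. With compound 6 none of these lists held a call, beside 0.575% of all genes.

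COQ10B, a coenzyme Q binding protein, rose by 0.95 with compound 4 and 1.07 with compound 5. It was 1 of 17 carrier and coenzyme Q genes in each, beside 9.51 and 8.3% of all genes. CYCS, which encodes cytochrome c, had values of 0.02, -0.03 and -0.02. The adenine nucleotide carrier gene SLC25A6 rose by 0.44 and 0.42 with compounds 4 and 5. It was the 1 of 21 import and inner membrane genes called, beside the same shares of all genes. No citric acid cycle enzyme of 13 was called with any compound, beside 9.51, 8.3 and 0.575% of all genes.

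The 78 mitochondrial ribosomal protein genes had medians of -0.09, -0.08 and -0.14, close to those of the subunit genes. With compound 4, where 9.51% of all genes were called, MRPL49 was called at -0.50 and MRPL10 at 0.46. The 78 tested cytosolic ribosomal protein genes had medians of 0.19, 0.17 and 0.04. EdgeR called 0 of them, beside 9.51, 8.3 and 0.575% of all genes. At an unadjusted p under 0.05 there were 20, 12 and 2, beside 27.5, 28.4 and 18.6% of all genes. CYP2C19 had log2-fold changes of 0.79, 1.05 and 0.04, and was called with compound 5 (adjusted p = 0.040 by edgeR). Its counts do not separate transcripts of the construct from those of the cells' own gene.

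Each call among these surrounding genes was lost without DMSO replicate 1 and without DMSO replicate 2, where 425 and 43 of all genes were called with compound 4 and 76 and 46 with compound 5. The size of the changes moved less, with ESRRA between 0.54 and 0.64 and COQ10B between 0.90 and 0.99 with compound 4 when libraries were left out. Over 15 alternatives ESRRA was called in 12 with either compound, COQ10B in 11 and 12, LYRM7, MT-ND5 and PPARGC1A with compound 5 in 11, COX11 and MRPL49 in 9, HIGD1A, NDUFAF1 and PPRC1 in 7, MRPL10 in 6, and SLC25A6 in 7 with compound 4 and 5 with compound 5. The calls of NDUFAF1 and PPARGC1A were lost in a fit of the 4 libraries compared, that of NDUFAF1 also with DESeq2, that of MRPL10 also under DESeq2 size factors and that of SLC25A6 with compound 5 also at a minimum of 10 counts in every library or without either compound 4 library. HIGD1A, MRPL10, PPRC1 and SLC25A6 lost theirs under upper-quartile factors and in a fit of the 4 libraries compared. COX11, HIGD1A, MRPL10, MRPL49, NDUFAF1, PPRC1 and SLC25A6 lost their calls without either compound 6 library. The call of CYP2C19 was not examined in this way.

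Counting limits some of these values. Of the 82 tested members, 45 overlap another counted gene, 20 on the same strand and 39 on the other, and the sources used here do not state whether the counting used strand.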

How the data were processed

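RNA of 8 libraries (4 groups of 2) was sequenced from a directional kit. Per the labels and the study's methods, the authors checked reads with FastQC 0.12.0, estimated transcripts with Salmon 1.5.0 on a GENCODE index of GRCh38, summed them to genes with tximeta and used DESeq2 1.38.3. The deposited table holds their estimated counts as whole numbers, without normalization. No sample column was left unused (0).

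Tests were run with edgeR 4.0.16 (R 4.3.3), using TMM scaling, filterByExpr (minimum count 10) and the quasi-likelihood test with Benjamini-Hochberg adjustment over 13400 genes, in 1 fit of all 8 libraries without a block. Scripts were tested on simulated data. Symbols came from a gene name table, and positions from GENCODE 29 on GRCh38. Promoters came from RefSeq (GRCh38.p14), which matched 70 of the 89 members. Library medians used log2(CPM + 0.5). DESeq2 1.42.0 was an alternative. The members, lists and subgroups were chosen with earlier results of these data known. Named genes were the highest and lowest of each complex per compound, every called member, the isoform sets, untested members, up to 3 called genes per list, CYCS and PPARGC1A. NDUFS1, NDUFB10 beyond compound 4, ATP5MF, COX7A2 and CYP2C19 were added after their values were seen. The day in the labels pairs libraries across groups. Deviations of same-day libraries correlated between -0.16 and 0.30 over 6 pairs of groups.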

Additional observations from a re-analysis of the deposited data

How the results depend on the processing

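COX7A2L was the only member called with compounds 4 and 5 under the replicate block (1 and 1), beside 12.7 and 10.7% of all genes. The same held under DESeq2 size factors, beside 9.44 and 8.22%, and under upper-quartile factors, beside 9.39 and 7.72%. It also held at a minimum of 10 counts in every library, beside 11.6 and 10.3%. The block changed no other member call. Elsewhere the counts moved. Shares in brackets are those of all genes tested under the same setting. With compound 4, 2 members were called by DESeq2 (10.9%) and 2 without a filter (10.3%). With compound 5, 0 were called in a fit of the 4 libraries compared (6.01%) and 6 without a filter (10.5%). With compound 6, DESeq2 called 2 (4.33%), the 4 libraries compared 4 (7.13%), no filter 4 (5.87%) and a minimum of 10 counts in every library 1 (1.64%). Without a filter, compounds 4 and 5 differed in 1 member (3.25%), and compounds 4 and 6 in 1 (1.12%). The causes were not tested.

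Leaving out 1 library gave 0 to 2 calls with compound 4 (0.321 to 12.7%), 0 to 8 with compound 5 (0.343 to 13.6%) and 0 to 2 with compound 6 (0.0149 to 3.37%). The 8 calls came without compound 5 replicate 2, where 13.6% of all genes were called. Leaving out 1 library or 1 replicate number, the medians with compound 4 ran from -0.249 to -0.000745 for complex I, -0.274 to 0.0048 for complex II, -0.179 to 0.0076 for complex III, -0.226 to 0.129 for complex IV, -0.321 to 0.0126 for the ATP synthase and -0.237 to 0.0104 for all members. With compound 5 they ran from -0.195 to -0.0415 for complex I, -0.196 to -0.0638 for complex IV, -0.296 to -0.0976 for the ATP synthase, -0.124 to 0.0549 for complex II and from -0.165 to 0.0878 for complex III. With compound 6 they ran from -0.27 to -0.17 for complex I, -0.19 to -0.14 for complex II, -0.194 to -0.092 for complex III, -0.137 to -0.0689 for complex IV, -0.24 to -0.15 for the ATP synthase and -0.21 to -0.16 for all members.

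The complex II median with compound 5 was -0.11 under upper-quartile factors. With compound 6 the complex II median was -0.15 (DESeq2, size factors, upper-quartile factors, no filter and a minimum of 10 counts) or -0.16 (the 4 libraries compared), and the complex IV median -0.13 (the 4 libraries compared, DESeq2, size factors, upper-quartile factors, no filter), -0.12 (minimum of 10 counts) or, with NDUFA4 and NDUFA4L2 moved to complex I after seeing the data, -0.0898.

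The sign turned for uncalled values near 0. Under upper-quartile factors COX7A2L between compounds 4 and 5 was 0.0292 and CYCS with compound 4 was -0.0147. Leaving out a library, COX7A2L between compounds 4 and 5 ran from -0.15 to 0.10. CYCS ran from -0.12 to 0.16 with compound 4, -0.17 to 0.11 with compound 5 and -0.16 to 0.12 with compound 6. NDUFA4L2 ran from -0.92 to 0.24 with compound 4, SDHB from -0.0247 to 0.23 with compound 4 and -0.18 to 0.0307 with compound 6, and UQCRB from -0.0142 to 0.11 with compound 6.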
